A study of Homo sapiens with 8 samples.

Results

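The genes described here are 10 transcripts that lie downstream of ERK: the Sprouty genes SPRY1, SPRY2 and SPRY4, the Spred genes SPRED1 and SPRED2, the ETS factors ETV1, ETV4 and ETV5, and PHLDA1 and IER3. They were taken as all probe sets whose only gene symbol in the platform table is one of these names, which gave 29 of 54675 probe sets, for 10 of 19775 genes. Expression was measured in side population (SP) cells, which pump out Hoechst dye, and in main population (MP) cells, which retain it, sorted from 4 human lung adenocarcinoma lines. A549 and H460 are the lines that the study gives as K-Ras mutant, and H1650 and H1975 those that it gives as EGFR mutant. Each line gave 1 SP and 1 MP Affymetrix U133 Plus 2.0 array, 8 arrays in all, so that the line is the replicate and each class holds 2 lines. The cells were stained with Hoechst dye, and propidium iodide was added so that viable cells could be gated. The study checked the sort gate with fumitremorgin C, an inhibitor of the ABCG2 pump, and shows that check for A549. A class of 2 lines cannot be told apart from anything else that those 2 lines share. The arrays read RNA of sorted cells in bulk, so fewer cells with a transcript and less transcript per cell cannot be told apart.

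Growth factor receptors such as EGFR load Ras with GTP, and Ras then drives the RAF, MEK and ERK kinases, so that both mutated genes sit upstream of the same cascade. ERK switches on a set of transcripts that includes the PEA3 group of ETS factors (ETV1, ETV4 and ETV5) and the Sprouty and Spred proteins, which feed back to restrain the cascade. Levels of such transcripts are commonly read as a measure of ERK output.

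Values are log2 MAS5 signals as the authors deposited them, and a difference of 1 is a 2-fold change. For each gene the probe set with the highest mean signal was tested, and all 10 genes lay above the filter, the median probe set signal of 6.01. The median log2 signal of the arrays lay between 5.92 and 6.29, and the number of arrays limits the precision. ABCG2, the dye pump that serves as control for the sort, was higher in SP than in MP by 1.17 in H1975, 1.08 in A549 and 0.36 in H460, but its log2 ratio was -0.70 in H1650. What is said of SP in H1650 thus depends on the labels of its 2 arrays. The study also ran qRT-PCR in all 4 lines, H1650 included, with ABCG2 as the positive control for SP. Its text prints no ABCG2 values. The epithelial line markers EPCAM, KRT8, KRT18, KRT19, KRT7 and CDH1 were all above the filter on average, and their summed linear signal ranged from 37400 to 67600 on the K-Ras mutant arrays and from 33500 to 74800 on the EGFR mutant arrays. CDH1 was near the bottom of the scale in H460 (1.61 in SP and 0.63 in MP). Of the leukocyte markers 1 of 4 on the array (CD14) was above the filter, with a summed signal of 214 to 782 over the 8 arrays. Of the fibroblast and endothelial markers 5 of 6 were above the filter. Their summed signal was 1080 to 2540 on the K-Ras mutant arrays and 1130 to 9080 on the EGFR mutant arrays. It was highest in H1975, where COL1A1 had a line mean of 12.97 and COL1A2 of 9.16. COL3A1 went the other way, lowest in H1975 (4.32) and highest in H460 (10.53). Line means of DCN (6.25 to 6.92) and PECAM1 (7.05 to 7.39) varied little. No marker was at 0, and the part of these markers in the differences between lines was not tested.

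The start-site windows of RefSeq (GRCh38.p14) covered 7 of the 10 genes in 16 windows, and ETV4, ETV5 and IER3 were not matched. The 250 bases before the start are printed for ETV1, SPRY4 and PHLDA1. On their brightest probe sets ETV1 and SPRY4 were higher on all 4 K-Ras mutant arrays than on all 4 EGFR mutant arrays. Neither passed a test between the classes. PHLDA1 was the gene with the largest mean difference of SP from MP. Capitals mark CCGGAA, the core that ETS factors bind, and TGACG, the half-site of CREB and ATF factors, each searched on both strands. The 2 motifs cannot overlap each other.
ETV1, chr7:13990703-13990952, minus strand: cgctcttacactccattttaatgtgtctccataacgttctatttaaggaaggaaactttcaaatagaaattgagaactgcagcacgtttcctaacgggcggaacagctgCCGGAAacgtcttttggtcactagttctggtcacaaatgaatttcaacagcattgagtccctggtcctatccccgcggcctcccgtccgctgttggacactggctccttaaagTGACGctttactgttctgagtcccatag
SPRY4, chr5:142324248-142324497, minus strand: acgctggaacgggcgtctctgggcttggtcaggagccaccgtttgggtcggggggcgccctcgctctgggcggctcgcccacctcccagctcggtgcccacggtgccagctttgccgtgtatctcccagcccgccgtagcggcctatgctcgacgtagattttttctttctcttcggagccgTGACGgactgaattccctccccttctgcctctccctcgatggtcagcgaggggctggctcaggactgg
PHLDA1, chr12:76031777-76032026, minus strand: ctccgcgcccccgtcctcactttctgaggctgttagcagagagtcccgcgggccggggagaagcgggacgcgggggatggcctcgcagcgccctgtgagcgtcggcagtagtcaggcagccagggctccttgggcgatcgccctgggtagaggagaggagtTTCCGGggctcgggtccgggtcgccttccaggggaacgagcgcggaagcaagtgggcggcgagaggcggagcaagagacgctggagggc
The ETV1 window is the first of 6 in the table, of which 3 held CCGGAA and 3 held TGACG. In this ETV1 window CCGGAA began 141 bases before the start and TGACG 28 bases before it. The SPRY4 window held TGACG 68 bases before the start and no CCGGAA. The PHLDA1 window held CCGGAA on the opposite strand (TTCCGG, beginning 89 bases before the start) and no TGACG. Over all members 6 of 16 windows held CCGGAA, in ETV1, SPRY1, SPRY2 and PHLDA1, against 14.5% of 35116 windows of the same length, and 5 of 16 held TGACG, against 21.2%. Windows of 1 gene can overlap, as windows of ETV1 do, and a match of letters is not a measured site.

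The first question was whether levels in the K-Ras mutant lines differed from those in the EGFR mutant lines. ETV4 and ETV1 had the largest differences of the 10 genes, 8.82-fold and 5.57-fold higher on average in the K-Ras mutant lines. SPRY4 was 2.21-fold higher there and ETV5 2.05-fold, while the other Sprouty and Spred genes, PHLDA1 and IER3 had ratios of 0.74 to 1.26. None of the 10 genes passed an adjusted p of 0.05 in limma with 2 lines against 2, and none of the 12300 genes tested did (0% called). At an unadjusted p under 0.05 there were 2 members, ETV4 and ETV5, among 1154 genes. The median difference was 0.28 over the 10 genes and -0.023 over all genes tested.

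**Figure D1:**
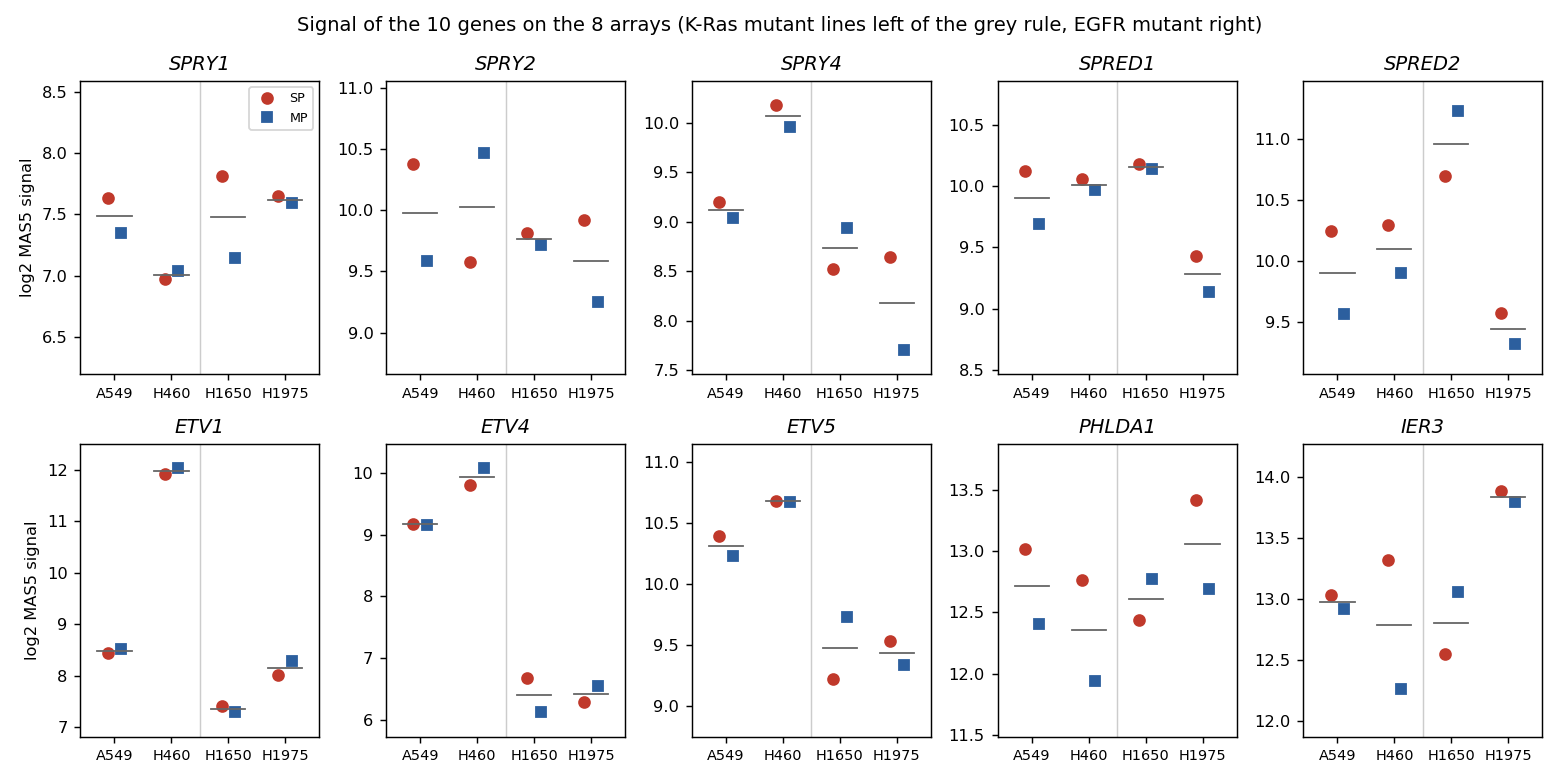
Log2 MAS5 signal (y axis) of the brightest probe set of each of the 10 genes on the 8 arrays, with SP as circles, MP as squares and the line mean as a grey bar. K-Ras mutant lines stand left of the vertical rule and EGFR mutant lines right of it, and the scale differs between panels. ETV1, ETV4, ETV5 and SPRY4 lie higher on all 4 K-Ras mutant arrays than on all 4 EGFR mutant arrays.

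ETV4, an ETS activator named for the PEA3 site, had signals of 9.17 (SP) and 9.16 (MP) in A549 and 9.80 and 10.07 in H460, against 6.68 and 6.12 in H1650 and 6.29 and 6.55 in H1975. The lowest K-Ras mutant array was thus 2.48 above the highest EGFR mutant array on the log2 scale. The difference of the classes was 3.14 ± 0.52 (SE, n = 2 lines per class, limma, adjusted p = 0.25). It was 3.0 over the SP arrays alone and 3.28 over the MP arrays alone. A limma fit of all 8 arrays with the line as a random block gave ETV4 an adjusted p of 0.0345, and 143 of 12300 genes passed. That fit counts arrays that share a line as partly separate observations, while the class varies only between lines. Its smaller p-value is therefore no evidence beyond that of 2 lines per class. The second probe set, 211603_s_at, gave 3.69, or 12.9-fold.

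The 4 lines themselves could be ordered by the pairwise moderated tests, adjusted over all genes and pairs. H460 was above A549 in ETV4 by 0.77 (adjusted p = 0.0492 in limma), A549 was above H1975 by 2.75 (adjusted p = 0.000172), and H1975 and H1650 differed by 0.018 (adjusted p = 0.963). The step between the classes was therefore the largest of the order, and the 2 EGFR mutant lines were not separated.

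ETV1, the PEA3 factor that is also a fusion partner in prostate tumours, was high in 1 line above all. It read 11.92 (SP) and 12.03 (MP) in H460 and 8.45 and 8.51 in A549, against 7.42 and 7.29 in H1650 and 8.01 and 8.29 in H1975. On this brightest probe set the classes did not overlap, but the gap between A549 and H1975 was small. H460 exceeded A549 by 3.50 (limma adjusted p = 1.05e-05), A549 exceeded H1975 by 0.33 (adjusted p = 0.173), and H1975 exceeded H1650 by 0.80 (adjusted p = 0.00839). The class difference of 2.48 ± 1.26 (SE, adjusted p = 0.602) was 0.73 without H460. All 5 probe sets of ETV1 had the higher mean in the K-Ras mutant lines, by 1.05 to 2.48. On 206501_x_at, 217053_x_at and 221910_at the arrays of the classes overlapped. On 217053_x_at the A549 line mean (6.55) was below that of H1975 (6.58).

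ETV5, the third factor of the group, read 10.39 (SP) and 10.22 (MP) in A549 and 10.68 and 10.67 in H460, against 9.22 and 9.73 in H1650 and 9.53 and 9.33 in H1975. On this brightest probe set the 2 classes did not overlap. The difference was 1.04 ± 0.37 (SE, limma, adjusted p = 0.513). A549 exceeded H1650 by 0.83 (adjusted p = 0.0108), while H460 and A549 (0.37, adjusted p = 0.165) and H1650 and H1975 (0.038, adjusted p = 0.891) were not separated. Its 5 probe sets differed by 0.33 to 1.04, all toward the K-Ras mutant lines. The arrays of the classes overlapped on 203348_s_at and 216375_s_at. On 203348_s_at the H460 line mean (8.80) was below that of H1650 (8.85). Over the 3 PEA3 genes 12 of 12 probe sets had the higher mean in the K-Ras mutant lines, where 47.7% of all probe sets did, and on 7 of the 12 every K-Ras mutant array lay above every EGFR mutant array, where 7.68% of all probe sets did. Probe sets of 1 gene read the same RNA and are not independent.

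SPRY4, a Sprouty inhibitor of Ras activation downstream of receptors, was the feedback gene that differed most. It read 9.20 (SP) and 9.04 (MP) in A549 and 10.18 and 9.96 in H460, against 8.52 and 8.94 in H1650 and 8.65 and 7.71 in H1975. The classes were apart by only 0.10 at the nearest arrays, A549 MP and H1650 MP. The difference was 1.14 ± 0.54 (SE, limma adjusted p = 0.583), and 0.67 without H460. H460 exceeded A549 by 0.95 (adjusted p = 0.0326), and neither A549 and H1650 (0.39, adjusted p = 0.315) nor H1650 and H1975 (0.55, adjusted p = 0.164) were separated.

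SPRY2, the Sprouty protein that binds the ubiquitin ligase CBL, read 10.38 (SP) and 9.59 (MP) in A549 and 9.58 and 10.47 in H460, against 9.82 and 9.72 in H1650 and 9.92 and 9.25 in H1975. Both K-Ras mutant line means lay above both EGFR mutant ones, but the arrays overlapped and the difference was 0.33 ± 0.36 (SE, limma adjusted p = 0.793). SPRY1 read 7.64 and 7.35 in A549 and 6.97 and 7.04 in H460, against 7.82 and 7.14 in H1650 and 7.65 and 7.59 in H1975, a difference of -0.30 ± 0.51 (SE, adjusted p = 0.872). Unlike SPRY4 it had its lowest line mean in H460. No neighbours in the order of lines were separated for SPRY1 or SPRY2, with adjusted p of 0.197 to 0.975.

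The Spred genes encode relatives of Sprouty that bring neurofibromin to Ras at the membrane. SPRED1 read 10.12 (SP) and 9.69 (MP) in A549 and 10.06 and 9.97 in H460, against 10.19 and 10.14 in H1650 and 9.43 and 9.14 in H1975. H1975 stood below the other 3 lines, by 0.62 from A549 (limma adjusted p = 0.015), and the class difference was 0.24 ± 0.46 (SE, adjusted p = 0.895). Its probe set 235074_at showed another order, with H460 highest (8.74 in SP and 9.03 in MP) and a class difference of 0.93. SPRED2 read 10.24 and 9.57 in A549 and 10.29 and 9.90 in H460, against 10.69 and 11.23 in H1650 and 9.57 and 9.32 in H1975. H1650 was highest, 0.87 above H460 (adjusted p = 0.0308), and the classes differed by -0.20 ± 0.61 (SE, adjusted p = 0.932). The other 2 probe sets of SPRED2 lay below the median signal.

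PHLDA1, a pleckstrin homology-like protein whose transcript follows ERK activity, and IER3, an immediate early gene that modulates cell death, had slightly lower means in the K-Ras mutant lines. PHLDA1 line means were 12.71 in A549 and 12.35 in H460, against 12.61 in H1650 and 13.06 in H1975, with a class difference of -0.30 ± 0.26 (SE, limma adjusted p = 0.742). That difference was -0.075 without H1975, -0.12 without H460 and -0.039 on the SP arrays alone. Its 6 probe sets did not share a direction, with 3 higher and 3 lower in the K-Ras mutant lines. IER3 read 13.03 (SP) and 12.92 (MP) in A549 and 13.32 and 12.26 in H460, against 12.55 and 13.06 in H1650 and 13.88 and 13.79 in H1975. H1975 alone was high, 0.86 above A549 (adjusted p = 0.0478), and without H1975 the class difference was 0.08 in place of -0.44.

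**Figure D2:**
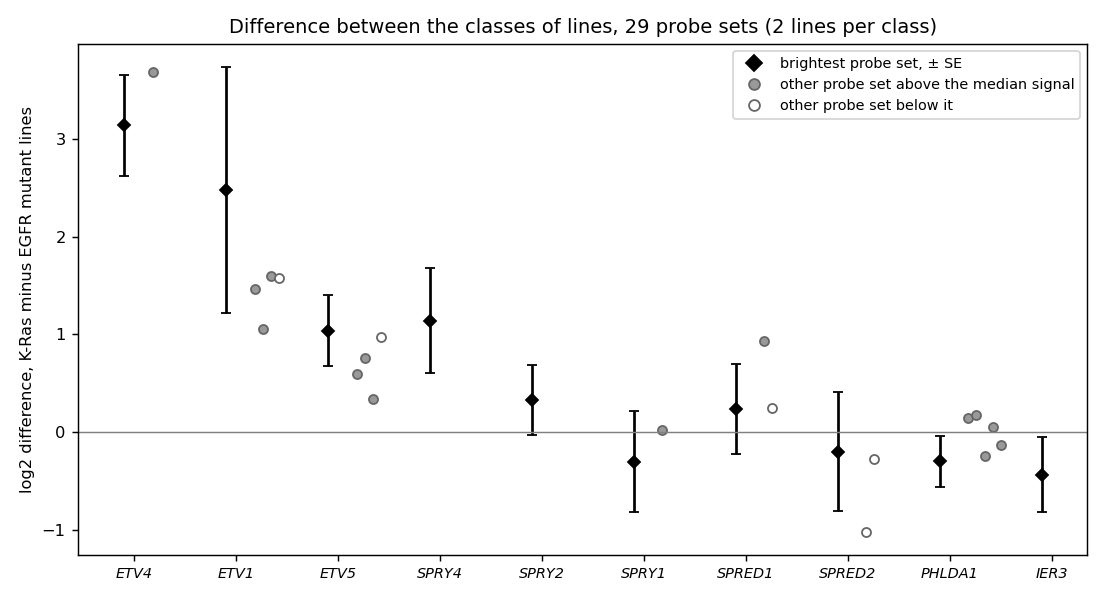
Log2 difference of the K-Ras mutant minus the EGFR mutant lines (y axis) for the 29 probe sets of the 10 genes. Diamonds are the brightest probe sets with the limma standard error, filled circles other probe sets above the median signal and open circles those below it. All 12 probe sets of ETV1, ETV4 and ETV5 lie above 0.

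Both K-Ras mutant line means exceeded both EGFR mutant ones for 5 of the 10 genes (SPRY2, SPRY4, ETV1, ETV4 and ETV5), against 19.7% of the genes tested. On all 4 against all 4 arrays 4 of the 10 were apart (without SPRY2), against 12% of the genes tested. Only 2 lines stand on each side, and 2 against 2 allow no two-sided permutation p under 0.333. Among the 4 lines, irrespective of class, 7 of the 10 genes passed an adjusted p of 0.05 in the limma F test (all except SPRY1, SPRY2 and PHLDA1), close to the background of 76.3% of genes, and the median range of line means was 1.15 against 1.13 over all genes. Of the 60 pairs of lines 27 passed (45%), where 48.2% did over all genes. Of the 40 pairs across the classes 20 passed. These were all 4 for ETV4 and ETV5, 3 for ETV1 and SPRY4, 2 for SPRED1, SPRED2 and IER3, and 0 for the others. The share of all genes with such counts was not taken, so they are a description only. These tests ask whether the lines differ beyond the scatter of their SP and MP arrays and say nothing of other lines with these mutations. The 3′ over 5′ log2 ratio of ACTB, a sign of RNA quality, was 0.52 to 0.65 on the K-Ras mutant arrays and 0.23 to 0.52 on the EGFR mutant arrays. That of GAPDH overlapped between the classes, at -0.14 to -0.030 on the K-Ras mutant arrays and -0.18 to -0.061 on the EGFR mutant arrays. The part of RNA quality in these differences was not tested.

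Levels of several members followed each other over the 8 arrays, which come from only 4 lines. ETV4 and ETV5 had a Pearson r of 0.93 and ETV5 and SPRY4 of 0.90, PHLDA1 and IER3 of 0.80, and SPRY1 and SPRY4 of -0.75. By the fixed rule the gene closest to ETV4 was LINC02864 (r = 0.997), to ETV1 FNDC3A (0.998), to ETV5 PBK (0.989), to SPRY4 CDKN3 (0.990), to SPRY1 MIAT (0.932) and to SPRY2 DIAPH1 (0.887). SPRED1 was closest to EP400P1 (0.978), SPRED2 to CCNE2 (0.991), PHLDA1 to SRFBP1 (0.971) and IER3 to FZR1 (0.970). The number of genes with an r over 0.95 was 169 for ETV4, 131 for ETV1, 83 for ETV5, 29 for SPRY4, 14 for SPRED1, 13 for SPRED2, 4 for IER3, 3 for PHLDA1 and 0 for SPRY1 and SPRY2.

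Of 15 other ERK output genes 14 differed among the lines, none passed between the classes, and 7 had the higher mean in the K-Ras mutant lines, with a median of -0.35. The 4 with the smallest p among lines went in both directions. The ERK phosphatase DUSP4 had line means of 12.61 in A549 and 12.67 in H460, against 9.24 in H1650 and 9.07 in H1975, a difference of 3.49 (limma adjusted p = 0.0905). DUSP6, the phosphatase specific for ERK, had 9.68 in A549 and 10.24 in H460, against 8.11 in H1650 and 5.94 in H1975. The ephrin receptor EPHA4 had 7.33 in A549 and 11.70 in H460, against 5.86 in H1650 and 4.87 in H1975. EGR1, a zinc finger factor induced by ERK, had 11.69 in A549 and 9.65 in H460, against 11.71 in H1650 and 12.74 in H1975. DUSP4 and DUSP6 were higher in both K-Ras mutant lines, as the PEA3 factors were, while EGR1 had its lowest line mean in H460. Another DUSP gene of the list, DUSP5, was not, with 12.6 in A549 and 10.7 in H460, against 11.9 in H1650 and 12.2 in H1975.

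All 9 other immediate early genes measured had the lower mean in the K-Ras mutant lines, with a median of -1.39, and all 9 differed among the lines. FOS averaged 10.06 in A549 and 10.26 in H460, against 11.71 in H1650 and 12.73 in H1975, and JUN averaged 11.85 in A549 and 11.51 in H460, against 12.95 in H1650 and 12.98 in H1975. KLF6 had 11.77 in A549 and 10.24 in H460, against 12.08 in H1650 and 13.25 in H1975. FOSB overlapped between the classes, with 12.17 in A549 and 9.19 in H460, against 12.79 in H1650 and 11.35 in H1975. None passed between the classes, where FOS differed by -2.06 (limma adjusted p = 0.361) and JUN by -1.28 (adjusted p = 0.281).

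Of the EGFR, Ras and ERK cascade 16 of 17 genes on the array were tested, 15 differed among the lines, and 6 had the higher mean in the K-Ras mutant lines (median -0.49). EGFR had line means of 11.64 in A549 and 10.40 in H460, against 13.14 in H1650 and 10.62 in H1975, so that H1650 was highest and H1975 near H460. KSR1, a scaffold of the cascade, was low in H460 alone (7.27, against 9.64 to 10.15 in the other lines), MAP2K2, which encodes MEK2, was highest in H1975 (12.80) and lowest in H1650 (10.82), and HRAS was lowest in H1975 (8.98). Of 9 tested partners of Sprouty and Spred proteins 6 differed among the lines and 4 had the higher mean in the K-Ras mutant lines (median -0.11). CBL had 10.01 in A549 and 9.97 in H460, against 11.17 in H1650 and 11.31 in H1975. SIAH2, a ubiquitin ligase, was likewise lower in A549 (8.61) and H460 (8.74) than in H1650 (9.77) and H1975 (10.02), CAV1 was lowest in H460 (12.55) and PPP2CA, a phosphatase subunit, lowest in H1975 (12.25).

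Of 13 other ETS family genes tested, 10 differed among the lines and 5 had the higher mean in the K-Ras mutant lines (median -0.12). ETS1 ran opposite to the PEA3 factors, with 10.03 in A549 and 10.08 in H460, against 12.19 in H1650 and 13.11 in H1975, a difference of -2.59 (limma adjusted p = 0.224). EHF was high in A549 alone (12.29, against 4.50 to 5.51), ELF3 was high in A549 (11.34) and H1650 (11.04), and the repressor ERF was lowest in H1975 (7.55).

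**Figure D3:**
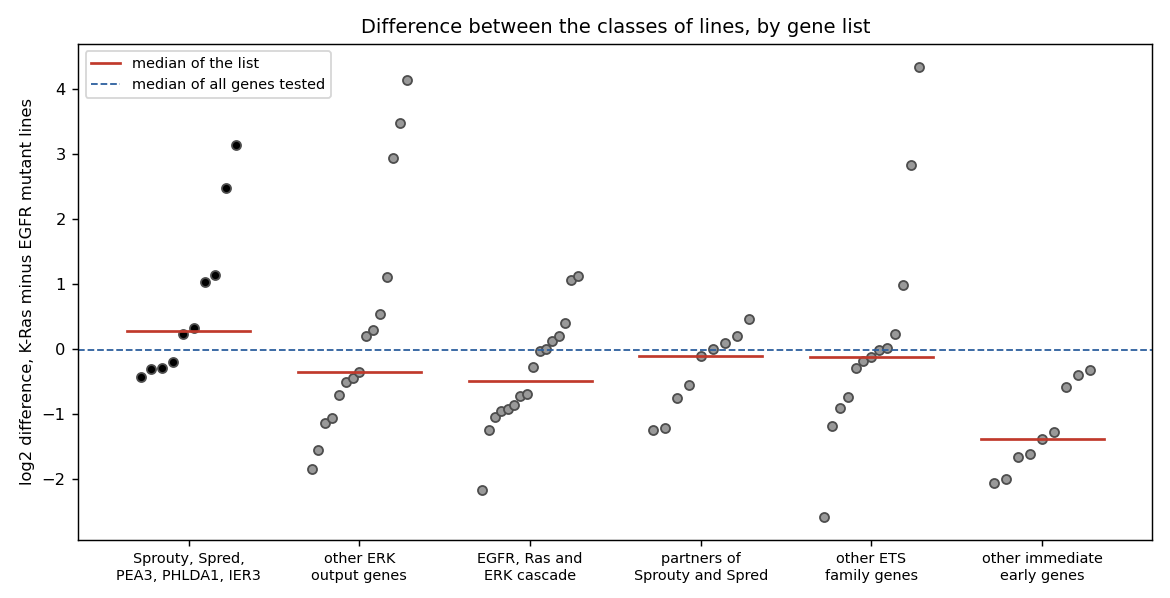
Log2 difference of the K-Ras mutant minus the EGFR mutant lines (y axis) of each tested gene in 6 lists, sorted within each list, with the list median in red and the median of all genes tested as a dashed line. All 9 other immediate early genes lie below 0, while the first list has 6 genes above and 4 below.

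The second question was whether SP and MP cells differed within a line. Differences on the brightest probe sets were small. The mean log2 change of SP over MP was 0.46 in PHLDA1 and between 0.17 and 0.24 in the Sprouty and Spred genes and IER3. In the PEA3 factors it was between -0.082 and 0.0066. None of the 10 genes, and none of the 12300, passed an adjusted p of 0.05 in limma with the line as a block (0% called). PHLDA1 was the 1 member among 372 genes at an unadjusted p under 0.05. On average 8 members were higher in SP and 2 lower, where 5581 of the 12300 genes tested were higher. ETV4 counted among the 8 at only 0.0066. The median was 0.19 over the members against -0.017 over all genes. Since 4 pairs allow no two-sided sign-flip permutation p under 0.125, no single gene could pass such a test. No member probe set was 2-fold changed in 1 direction in every line, where 110 of 54613 were (0.201%).

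PHLDA1, whose symbol stands in the study's heat map of genes selected on these same arrays, so that its direction here is no independent evidence, read in SP over MP 13.02 over 12.41 in A549, 12.77 over 11.94 in H460, 12.44 over 12.78 in H1650 and 13.42 over 12.70 in H1975. It was higher in SP in 3 lines, by 0.61, 0.83 and 0.73, and lower in H1650, with a log2 ratio of -0.34. The mean was 0.46 ± 0.18 (SE, n = 4 lines, limma, adjusted p = 0.945). Without H1650 it was 0.72 ± 0.11 (SD, n = 3 lines) and passed (limma adjusted p = 0.0312), among 25 genes that did. With the labels of H1650 exchanged it was 0.63 (limma adjusted p = 0.0172), among 210 genes that passed. H1650 was the only line in which PHLDA1 was lower in SP. Both alternatives take out that disagreement by construction, so these passes are no further evidence of a difference.

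The probe sets of PHLDA1 disagreed. The 5 other than 225842_at had mean changes of 0.14 to 0.69, while 225842_at was lower in SP in every line, with A549 at -0.41, H460 at -0.082, H1650 at -0.20 and H1975 at -0.21. Over all probe sets 6.24% were lower in SP in every line. Probe set 218000_s_at followed the brightest one, with A549 at 1.17, H460 at 0.94, H1650 at -0.59 and H1975 at 1.26, whereas 217998_at and 217999_s_at were near 0 or lower in H460 (-0.044 and -0.25).

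**Figure D4:**
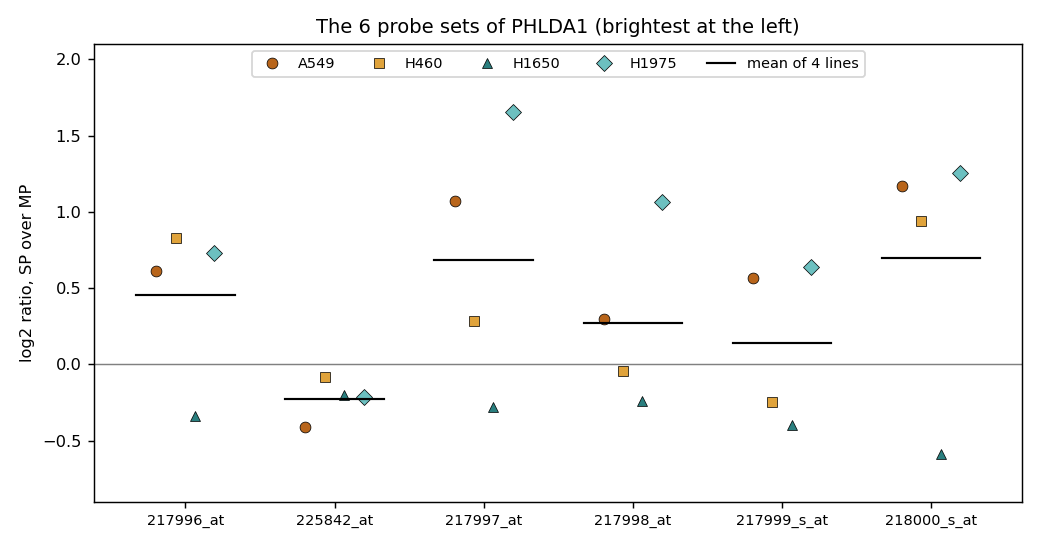
Log2 ratio of SP over MP (y axis) for the 6 probe sets of PHLDA1, with 1 symbol per line and the mean of the 4 lines as a bar. Probe set 225842_at lies below 0 in all 4 lines, and H1650 lies below 0 on all 6.

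The Sprouty and Spred genes varied by line. SPRED1 was higher in SP in all 4 lines, by 0.43 (A549), 0.093 (H460), 0.048 (H1650) and 0.29 (H1975) (mean 0.22 ± 0.11, SE, limma adjusted p = 0.945), as were 3.27% of genes tested. Its probe set 235074_at had a mean of -0.23. SPRY4 had its highest log2 ratio in H1975 (0.94) and its lowest in H1650 (-0.42), with A549 at 0.16 and H460 at 0.21, so that its mean of 0.22 came largely from H1975 and was -0.013 without that line. SPRY2 had a ratio of 0.79 in A549 but -0.90 in H460, and of 0.10 in H1650 and 0.67 in H1975, with opposite directions in the 2 K-Ras mutant lines. SPRY1 was highest in H1650 (0.68), with 0.29, -0.067 and 0.054 for A549, H460 and H1975, and its second probe set averaged -0.24. SPRED2 was higher in SP in A549 (0.68), H460 (0.39) and H1975 (0.26) and lower in H1650 (-0.54).

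On their brightest probe sets the PEA3 factors had mean changes of SP over MP near 0. Some other probe sets lay further from 0. ETV5 averaged 0.26 on 230102_at, higher in SP in every line, and 0.60 on 231083_at, which lay below the median signal. ETV1 averaged -0.37 on 217061_s_at and -0.36 on 221910_at, the latter also below the median signal. Between the classes of lines the brightest probe sets of the PEA3 factors did not overlap, but none passed in the fit of line means. ETV4 was near 0 in A549 (0.013), negative in H460 (-0.28) and H1975 (-0.27) and positive in H1650 (0.56, mean 0.0066 ± 0.19, SE, limma adjusted p = 0.998). ETV1 had log2 ratios of -0.068, -0.11, 0.13 and -0.28 for A549, H460, H1650 and H1975 (mean -0.082 ± 0.13, SE, adjusted p = 0.957), and ETV5 0.17, 0.0035, -0.51 and 0.20 (mean -0.036 ± 0.14, SE, adjusted p = 0.98). IER3 had 0.11, 1.05, -0.51 and 0.088 (mean 0.19 ± 0.21, SE, adjusted p = 0.945), and without H460 its mean was -0.10.

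**Figure D5:**
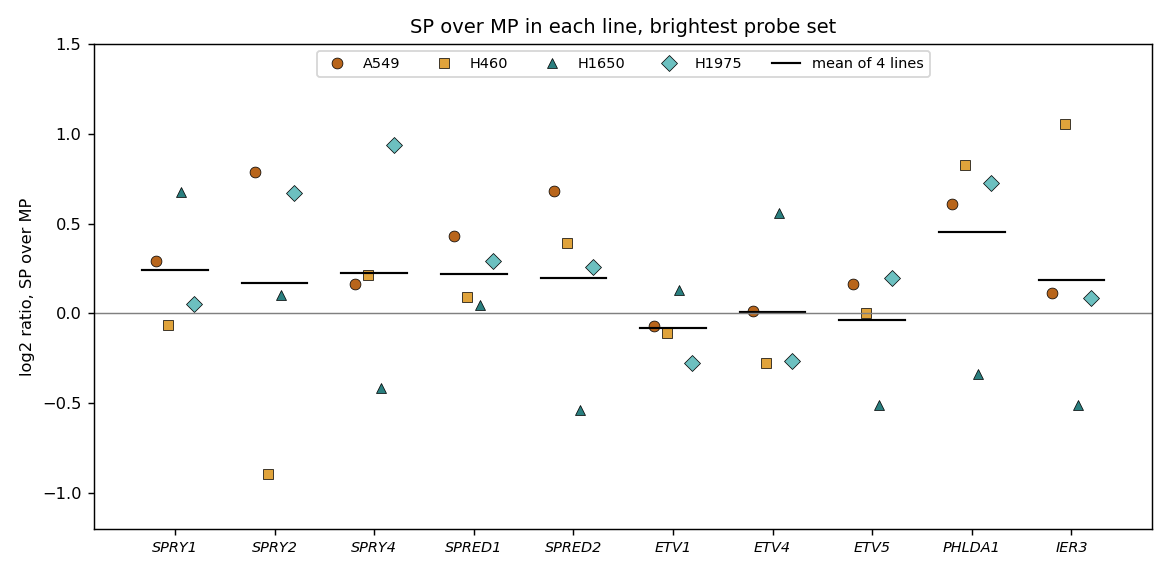
Log2 ratio of SP over MP (y axis) of the brightest probe set of each gene, with 1 symbol per line and the mean of the 4 lines as a bar. H1650 (triangles) lies below 0 in SPRY4, SPRED2, ETV5, PHLDA1 and IER3, where the other 3 lines lie above 0.

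On the brightest probe sets, 5 of the 10 genes were higher in SP in A549, H460 and H1975 and lower in H1650, as ABCG2 was. They were SPRY4, SPRED2, ETV5, PHLDA1 and IER3, and 13.5% of genes tested had this pattern. For ETV5 the ratio in H460 was only 0.0035, and 203348_s_at, 230102_at, 216375_s_at and 231083_at did not have the pattern. Nor did 225842_at, 217998_at and 217999_s_at of PHLDA1 or the dim 214026_s_at of SPRED2. The medians of the log2 ratios over the 10 genes were, for A549, H460, H1650 and H1975, 0.23, 0.048, -0.15 and 0.23, against 0.0039, -0.029, -0.0072 and -0.036 over all genes tested. Whether the change of SP over MP differed between the classes of lines was tested by limma on the 4 ratios: 0 of the 10 genes and 0 of 12300 passed (0% called), with 0 members among the 595 genes at an unadjusted p under 0.05. Of the other lists none held a gene that passed between SP and MP. The median log2 ratio was 0.021 over the 15 other ERK output genes, -0.053 over the cascade and -0.067 over the 9 immediate early genes. The 3′ over 5′ log2 ratio of ACTB was 0.23 to 0.65 on the SP arrays and 0.26 to 0.58 on the MP arrays. That of GAPDH was -0.18 to -0.061 on the SP arrays and -0.11 to -0.030 on the MP arrays.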

How the data were processed

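The authors deposited log2 MAS5 signals of 8 arrays, each with a trimmed mean of 500.1 before the log was taken. GCOS 1.4 and MAS5 are the tools in the submitters' processing notes. The paper also describes centring of each gene, which the deposited values do not show. Low MAS5 signals have no floor, so dim probe sets give large log2 ratios. Neither detection calls nor dates of scanning were at hand.

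Of 54675 probe sets, 41091 that are no controls had 1 gene symbol in the platform table, 1801 had several and 11777 had none, and of the 62 controls 56 are among those with none and 6 carry 1 symbol and were left out. The brightest probe set stood for a gene, and the 12300 genes that reached the median signal were fitted with limma 3.58.1 in R 4.3.3 (lmFit, eBayes with trend), with Benjamini-Hochberg adjustment over all of them. SP was compared with MP with the line as a block, because each line gave both arrays. The classes of lines, which the paper gives and the array labels do not, were compared over the 4 line means, and their SP effects over the 4 ratios. A moderated F test and the 6 pairs compared the lines. Separate sorts or cultures within a line are not described, so p-values measure the spread between these lines and arrays. The scripts were tested on simulated data.

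Named were all members, the gene with the highest r to each member, and ABCG2. From each other list up to 4 genes with the smallest p among lines were named, and DUSP5 beside DUSP4 and DUSP6. The members and lists were chosen with earlier results of these data known. The markers EPCAM, KRT8, KRT18, KRT19, KRT7, CDH1, CD14, COL1A1, COL1A2, COL3A1, DCN and PECAM1 serve as checks of the cells. Alternatives were a floor of 32, a pseudocount of 16, quantile or median scaling, other filters, every probe set or their mean, no trend, no block, a random block, an adjusted p under 0.1, SP or MP arrays alone, other fold thresholds, leaving out each line, and exchanged H1650 labels.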

Additional observations from a re-analysis of the deposited data

Results flagged for a closer look

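Among 30 sets of 4 values, the SP arrays, the MP arrays and the 4 log2 ratios of each of the 10 genes, 1 held a value far from its group. SPRED1 in the SP cells of H1975 read 9.43, away from 10.06 to 10.19 in the other 3 lines, and the gap was 0.832 of the whole range. Chance gives such a value in about 1 of 20 groups of 4, or 1.5 of 30. The MP array of H1975 was also the lowest of its group in SPRED1, at 9.14 against 9.69 to 10.14.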

How the results depend on the processing

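The PEA3 genes and SPRY4 kept the higher mean in the K-Ras mutant lines under every alternative run, but the size changed. With 1 line left out the difference was 2.76 to 3.52 in ETV4, 0.85 to 1.22 in ETV5, 0.73 (without H460) to 4.23 (without A549) in ETV1 and 0.67 (without H460) to 1.62 (without A549) in SPRY4. No gene passed between the classes in the fit of line means, 30 did at an adjusted p under 0.1, and 143 did with the line as a random block, with 1 member (ETV4). The random block counts arrays that share a line as partly separate, so its calls are no evidence beyond that of the line means. Without a line term (no replicate block) 0 genes and 0 members passed between SP and MP. Leaving out 1 line gave 0 to 25 genes and 0 to 1 members, and exchanging the H1650 labels 210 genes and 1 member. PHLDA1 was that member in both cases, which left out or turned H1650, the only line where it was lower in SP. The lines then also differed in PHLDA1 (limma adjusted p = 0.00156 without H1650 and 0.00389 with exchanged labels). Testing every probe set gave 22102 that differed among lines. The call among lines was lost by IER3 with every probe set (adjusted p = 0.0517), without a trend (0.1) and without H1975 (0.834), by SPRY4 without H460 (0.0997) and by SPRED1 without H1975 (0.399).

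Between SP and MP, a pseudocount gave ETV4 -0.0041, the mean of all probe sets gave SPRY1 -0.0025 and ETV5 0.19, and exchanged H1650 labels gave SPRY1 -0.10, ETV4 -0.27 and ETV5 0.22. SPRED2 between the classes was 0.13 on the SP arrays alone. The filter removed SPRED2 when all probe sets of a gene were averaged. With 1 line left out, the log2 ratio of SP over MP ranged from -0.18 to 0.10 in ETV4 and from -0.11 to 0.12 in ETV5 (turned without H1650), from -0.10 to 0.42 in IER3 (turned without H460), from -0.042 to 0.52 in SPRY2 (turned without A549 or H1975) and from -0.013 to 0.44 in SPRY4 (turned without H1975). The difference of the classes then ranged from -0.96 to 0.080 in IER3 and from -0.20 to 0.67 in SPRED1 (turned without H1975) and from -0.96 to 0.55 in SPRED2 (turned without H1650). The 110 probe sets that were 2-fold in 1 direction in every line became 0 with a floor, 3 with a pseudocount, 0 above the median signal, 451 at 1.5-fold, 23 at 3-fold, 205 with exchanged labels and 424 to 643 without 1 line. For these shifts the cause was not tested, except that fewer lines to meet, or a looser fold, admit more probe sets. All 110 had a mean below the median signal.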
